A study of Arabidopsis thaliana with 5 samples.

Results

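The genes described here encode plant invertase and pectin methylesterase inhibitors, small proteins of one superfamily that carry the inhibitor domain and no esterase domain. The 39 genes were taken by their gene IDs from the 37336 genes of the table. Of these, 34 had at least 1 count and 24 passed the filter on low counts and were tested, among 19003 tested genes in all. Their coding sequences are 480 to 939 bases long, and their annotated transcripts have a median length of 923 bases, against 1737 bases for the tested genes of the whole table.

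Pectin is laid down in the cell wall as methylesterified homogalacturonan. Pectin methylesterases remove the methyl groups, which lets calcium stiffen the wall or opens it to pectin-degrading enzymes, and the inhibitors (PMEIs) bind these enzymes and hold the reaction back. Close relatives of the same fold inhibit acid invertases, the enzymes that split sucrose in the wall and the vacuole. In Arabidopsis, PMEI1 and PMEI2 are known from pollen and pollen tubes, while PMEI6 and PMEI14 act in the mucilage-forming epidermis of the seed coat.

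Messenger RNA of developing Arabidopsis thaliana seeds was sequenced in 3 libraries of the mutant dof4.1-3 and 2 libraries of its wild type Col-0, grown at the same time. The labels and methods place the seeds at 9 days after pollination and another passage of the study at 10. dof4.1-3 is a single T-DNA line with its insertion in exon 2 of DOF4.1 (AT4G00940), a gene for a Dof-type transcription factor, so the line and the gene cannot be told apart here, and no other allele or treatment was part of the RNA-seq. Nothing in the sources says whether replicate libraries came from separate plants, so p-values measure the spread between libraries, and 3 against 2 libraries allow no exact permutation p below 0.1.

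The libraries held 20101091, 21722055 and 21053818 gene counts in dof4.1-3, against 16500028 and 17049283 in Col-0. DOF4.1 itself had 3, 4 and 4 counts in dof4.1-3, against 1 and 14 in Col-0, which is too few to check the labels. The 4 embryo markers, genes of storage proteins, an oleosin and the regulator ABI3, were abundant in every library, with a summed level of 59610 to 131300 CPM in dof4.1-3 and 26250 to 46110 CPM in Col-0. CPM are each library's counts scaled to a common total, here after TMM (trimmed mean of M-values) scaling. In whole seeds, fewer cells of a type and less RNA per cell cannot be told apart.

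The windows of 250 bases upstream of the transcription starts of the 4 inhibitor genes that differed between the genotypes (adjusted p under 0.05) are given first, because the mutated gene encodes a Dof protein and Dof proteins bind a short AAAG core. They were read from the RefSeq TAIR10.1 genome, 5′ to 3′ on the strand of the gene. Capitals mark each AAAG, and each CTTT, its complement on the other strand, which cannot overlap AAAG.
AT4G00872 (chr4:364758-365007, minus strand): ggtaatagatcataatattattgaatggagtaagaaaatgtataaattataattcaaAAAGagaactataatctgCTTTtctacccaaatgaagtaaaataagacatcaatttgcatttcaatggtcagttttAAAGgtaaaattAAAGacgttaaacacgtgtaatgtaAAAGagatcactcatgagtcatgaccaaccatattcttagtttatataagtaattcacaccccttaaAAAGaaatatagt
AT2G01610 (chr2:275003-275252, minus strand): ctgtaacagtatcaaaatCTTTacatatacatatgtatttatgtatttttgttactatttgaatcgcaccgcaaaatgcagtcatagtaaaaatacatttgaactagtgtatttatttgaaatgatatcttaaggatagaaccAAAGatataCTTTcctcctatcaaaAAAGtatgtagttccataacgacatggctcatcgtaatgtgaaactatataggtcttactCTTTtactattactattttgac
AT1G09370 (chr1:3024627-3024876, plus strand): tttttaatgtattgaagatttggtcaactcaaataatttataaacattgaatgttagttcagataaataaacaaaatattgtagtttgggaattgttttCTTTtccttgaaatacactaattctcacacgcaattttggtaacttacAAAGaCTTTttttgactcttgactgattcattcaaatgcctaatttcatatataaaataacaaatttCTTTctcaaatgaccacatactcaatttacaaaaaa
AT3G12880 (chr3:4095164-4095413, plus strand): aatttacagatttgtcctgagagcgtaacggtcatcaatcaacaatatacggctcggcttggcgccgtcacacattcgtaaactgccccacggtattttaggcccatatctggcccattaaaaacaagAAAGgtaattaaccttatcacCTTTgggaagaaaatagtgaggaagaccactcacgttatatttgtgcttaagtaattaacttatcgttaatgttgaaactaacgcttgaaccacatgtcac
The window of AT4G00872 held 6 matches, that of AT2G01610 held 5, that of AT1G09370 held 4 and that of AT3G12880 held 2. Such a short motif is nearly everywhere. It stood in 26885 of 27443 windows of the same length upstream of protein-coding genes (98%), with a median of 4 matches, and in 38 of the 39 windows of the inhibitor genes (97.4%), also with a median of 4. A match is a description of the letters and not a binding site.

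The expressed inhibitor genes spanned a wide range of levels in developing seeds, and a few of them held most of the family's RNA. Summed over the 39 genes, the level was 359, 402 and 431 CPM in dof4.1-3, against 749 and 517 CPM in Col-0, with no overlap between genotypes. The 5 most abundant genes made up 82.4% to 84.4% of this sum in dof4.1-3 and 77.4% to 79.1% in Col-0. AT3G12880 alone made up 29.5% to 35.1% of it in dof4.1-3 and 43.7% to 46.3% in Col-0. The other 34 genes together stood at 59.0 to 70.9 CPM in dof4.1-3 and at 117 to 157 CPM in Col-0.

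Levels were compared between genes per kilobase of transcript. On this scale AT3G12880 stood highest, at 153, 144 and 164 CPM per kb in dof4.1-3, against 421 and 275 CPM per kb in Col-0. AT1G23205 came next in the mean over all libraries, at 68.1, 95.1 and 114 CPM per kb in dof4.1-3, against 78.5 and 53.4 CPM per kb in Col-0. Within each genotype, all libraries of AT1G23205 lay below all libraries of AT3G12880.

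A middle group followed, and its genes overlapped each other in level. AT3G62820 had 27.5, 28.3 and 26.4 CPM per kb in dof4.1-3, against 62.2 and 37.2 CPM per kb in Col-0. AT5G62350 had 34.5, 37.0 and 31.1 CPM per kb in dof4.1-3, against 42.3 and 33.3 CPM per kb in Col-0. AT3G47670 had 23.8, 28.8 and 35.1 CPM per kb in dof4.1-3, against 32.2 and 28.9 CPM per kb in Col-0. AT2G01610 stood with these genes in Col-0 and below all of them in dof4.1-3, at 20.7, 17.4 and 14.8 CPM per kb in dof4.1-3, against 49.2 and 36.8 CPM per kb in Col-0. Below them were AT5G38610, AT1G09370, AT1G14890 and AT4G00872, all between 8.04 and 20.5 CPM per kb in Col-0, and 14 further tested genes.

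**Figure D1:**
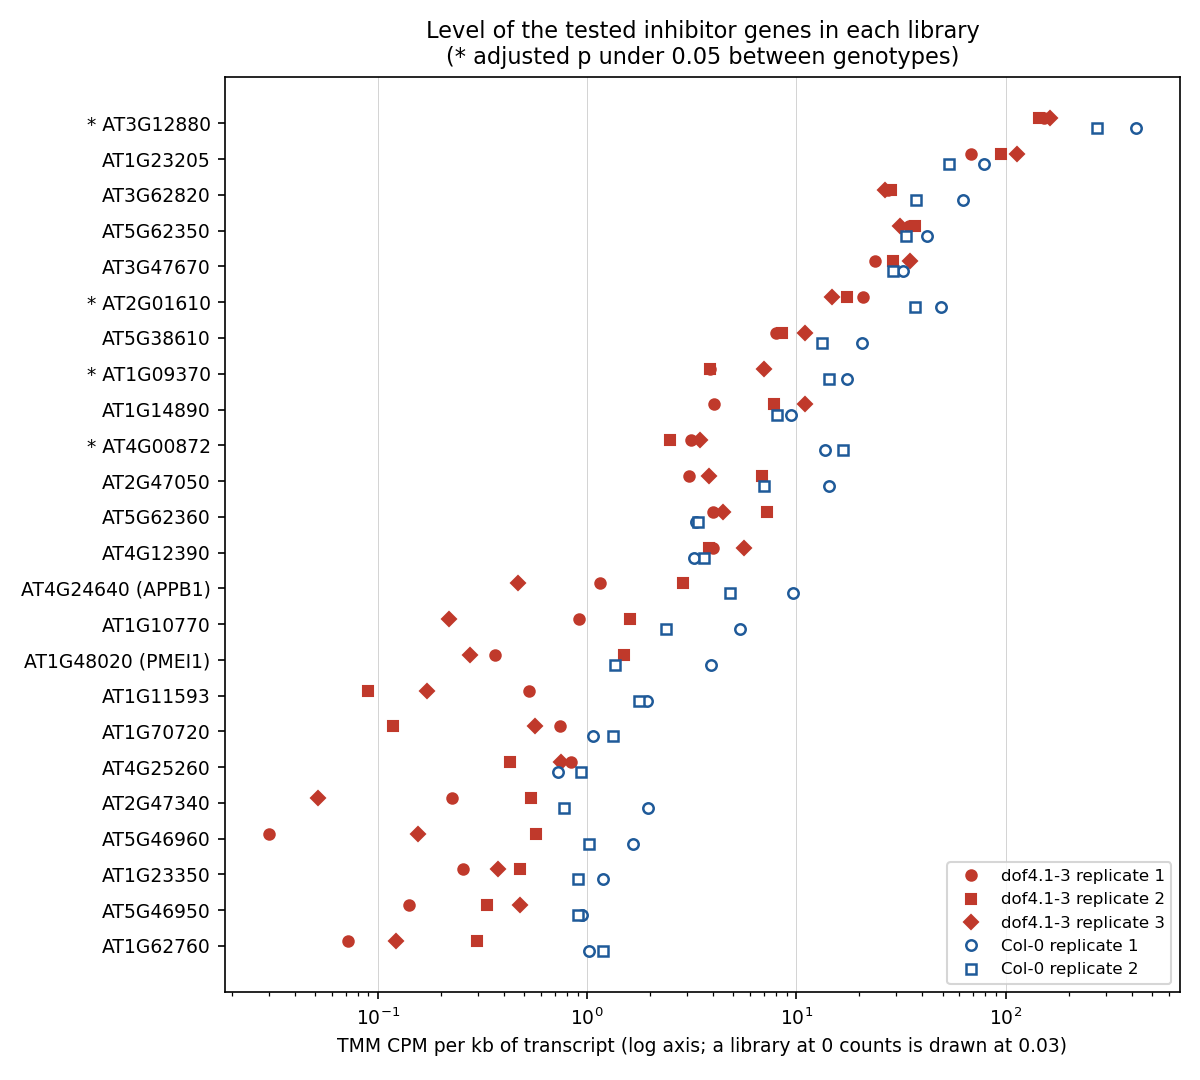
Level of the 24 tested inhibitor genes in each library (x axis, TMM CPM per kb of transcript on a log axis; filled red symbols, 3 dof4.1-3 libraries; open blue symbols, 2 Col-0 libraries; a library with 0 counts is drawn at 0.03). AT3G12880 stands highest in both genotypes, with all dof4.1-3 libraries (144 to 164) left of both Col-0 libraries (275 and 421).

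The study's design sets seeds without a functional DOF4.1 gene against wild type. In this comparison 4 of the 24 tested inhibitor genes were lower in dof4.1-3 by edgeR's quasi-likelihood test with Benjamini-Hochberg adjustment over all tested genes, where 0.963% of all tested genes were called lower (183 genes). None was higher, where 0.121% of all tested genes were called higher (23 genes), and none was higher at an unadjusted p under 0.05 or by DESeq2 either. The 4 genes were AT4G00872, AT2G01610, AT1G09370 and AT3G12880. All 4 averaged 5 CPM or more over the 5 libraries, as did 12 inhibitor genes in all.

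AT4G00872, on the minus strand of chromosome 4 from 364027 to 364757 of TAIR10.1, had the smallest adjusted p of the family. It had 2.05, 1.63 and 2.29 CPM in dof4.1-3, against 9.00 and 10.9 CPM in Col-0. Every dof4.1-3 library thus stood well below both Col-0 libraries, and the spread within each genotype was small beside the gap. The fitted level in dof4.1-3 was 0.200 times that in Col-0 (log2 fold change -2.32 ± 0.27 SE, edgeR adjusted p = 0.0106). The gene lies 38201 bases from DOF4.1 on the same chromosome, with 15 annotated genes between them. Of the 41 other genes within 50000 bases of DOF4.1, 19 were tested, AT4G00872 was the 1 gene called, and the median log2 fold change of the 19 was 0.19.

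AT2G01610, on the minus strand of chromosome 2 from 273895 to 275002, is annotated as expressed in most plant organs. It had 23.0, 19.3 and 16.4 CPM in dof4.1-3, against 54.5 and 40.8 CPM in Col-0. The genotypes did not overlap, and the level in dof4.1-3 was 0.411 times that in Col-0 (log2 fold change -1.28 ± 0.22 SE, edgeR adjusted p = 0.029).

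AT1G09370, on the plus strand of chromosome 1 from 3024877 to 3025539, carries an annotation of expression in the embryo and cotyledon. It had 2.55, 2.55 and 4.62 CPM in dof4.1-3, against 11.5 and 9.51 CPM in Col-0. Replicate 3 stood above the other dof4.1-3 libraries and still below both Col-0 libraries. The level in dof4.1-3 was 0.308 times that in Col-0 (log2 fold change -1.70 ± 0.31 SE, edgeR adjusted p = 0.0352). Its tandem neighbour AT1G09360, 2508 bases away with 55.3% identity in the coding sequence, had no count in any library.

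AT3G12880, on the plus strand of chromosome 3 from 4095414 to 4096236, was the most abundant inhibitor gene of these seeds. It had 126, 119 and 135 CPM in dof4.1-3, against 347 and 226 CPM in Col-0. The dof4.1-3 libraries lay close together at 126 ± 7.93 CPM (SD, n = 3), while the Col-0 libraries differed from each other more widely, at 286 ± 85.4 CPM (SD, n = 2). The level in dof4.1-3 was 0.442 times that in Col-0 (log2 fold change -1.18 ± 0.23 SE, edgeR adjusted p = 0.0475).

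The 4 genes are not close copies of one another. Their coding sequences shared 50.9% to 55.5% of aligned bases in the 6 pairs. The annotation names AT1G56100, the gene of PMEI14, as the nearest Arabidopsis protein of both AT4G00872 and AT3G12880, and its coding sequence shared 68% of aligned bases with AT4G00872 and 56.9% with AT3G12880. Shown for this match after its values were seen, AT1G56100 had 15.8, 11.8 and 51.4 CPM in dof4.1-3, against 54.8 and 38.1 CPM in Col-0 (log2 fold change -0.82 ± 0.62 SE, edgeR adjusted p = 0.57), so that replicate 3 of dof4.1-3 stood within the Col-0 range. No stretch of 50 bases in the exons of the 4 genes occurs elsewhere in the genome.

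These calls rested on both Col-0 libraries. Without Col-0 replicate 1 the adjusted p-values were 0.174 for AT4G00872, 0.387 for AT2G01610, 0.449 for AT1G09370 and 0.517 for AT3G12880, and without Col-0 replicate 2 they were 0.24 to 0.28. Over all tested genes 2 and 0 were then called lower, and the lone Col-0 library was assumed to vary as the dof4.1-3 libraries do. Without dof4.1-3 replicate 3, AT2G01610 (adjusted p = 0.112) and AT3G12880 (0.125) were no longer called. The direction of all 4 was the same without any 1 library, with log2 fold changes of -2.45 to -2.18 for AT4G00872 and -1.46 to -0.83 for AT3G12880.

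A further pair of genes had an adjusted p under 0.10. AT1G62760 (PMEI10) had 0.0911, 0.38 and 0.156 CPM in dof4.1-3, against 1.30 and 1.52 CPM in Col-0 (log2 fold change -2.75 ± 0.60 SE, edgeR adjusted p = 0.0677). These were 2, 7 and 3 counts in dof4.1-3, against 21 and 31 counts in Col-0. AT1G11593 had 7, 1 and 2 counts in dof4.1-3, against 19 and 22 counts in Col-0 (log2 fold change -2.72 ± 0.66 SE, edgeR adjusted p = 0.0897). Both genes passed the filter on low counts through the Col-0 libraries alone, so a lower level in dof4.1-3 was built into their being tested. Stretches of 50 bases that also occur elsewhere in the genome made up 9.78% of the exons of AT1G62760 and 24.2% of those of AT1G11593, and reads from these stretches could have been lost or split in counting. AT1G11593 was called without dof4.1-3 replicate 1 (adjusted p = 0.0183), and AT1G62760 without dof4.1-3 replicate 2 (adjusted p = 0.0115). In each case the library left out was the highest of the dof4.1-3 libraries.

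Across the family, most fold changes were below 0. In all 8 of the 24 tested genes would not have passed the filter on their dof4.1-3 libraries. The family was therefore described over the 17 genes that averaged 1 CPM or more over all libraries, a limit to which Col-0 levels also contribute. AT1G48020, 1 of the 8, averaged 0.54 CPM in dof4.1-3 and 1.995 CPM in Col-0. AT1G10770 averaged 0.864 CPM in dof4.1-3 and 3.686 CPM in Col-0. Both reached the limit through Col-0, so a lower level in dof4.1-3 was built into their place among the 17. The median log2 fold change of the 17 was -0.88, with 14 below 0 and 3 above. The 17408 genes of the whole table past the same limit had a median of 0.03. Every dof4.1-3 library was below both Col-0 libraries in 9 of the 17, where 17.8% of all such genes had this order. Every dof4.1-3 library was above both Col-0 libraries in 2 of the 17, where 16.8% of all such genes had this order.

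**Figure D2:**
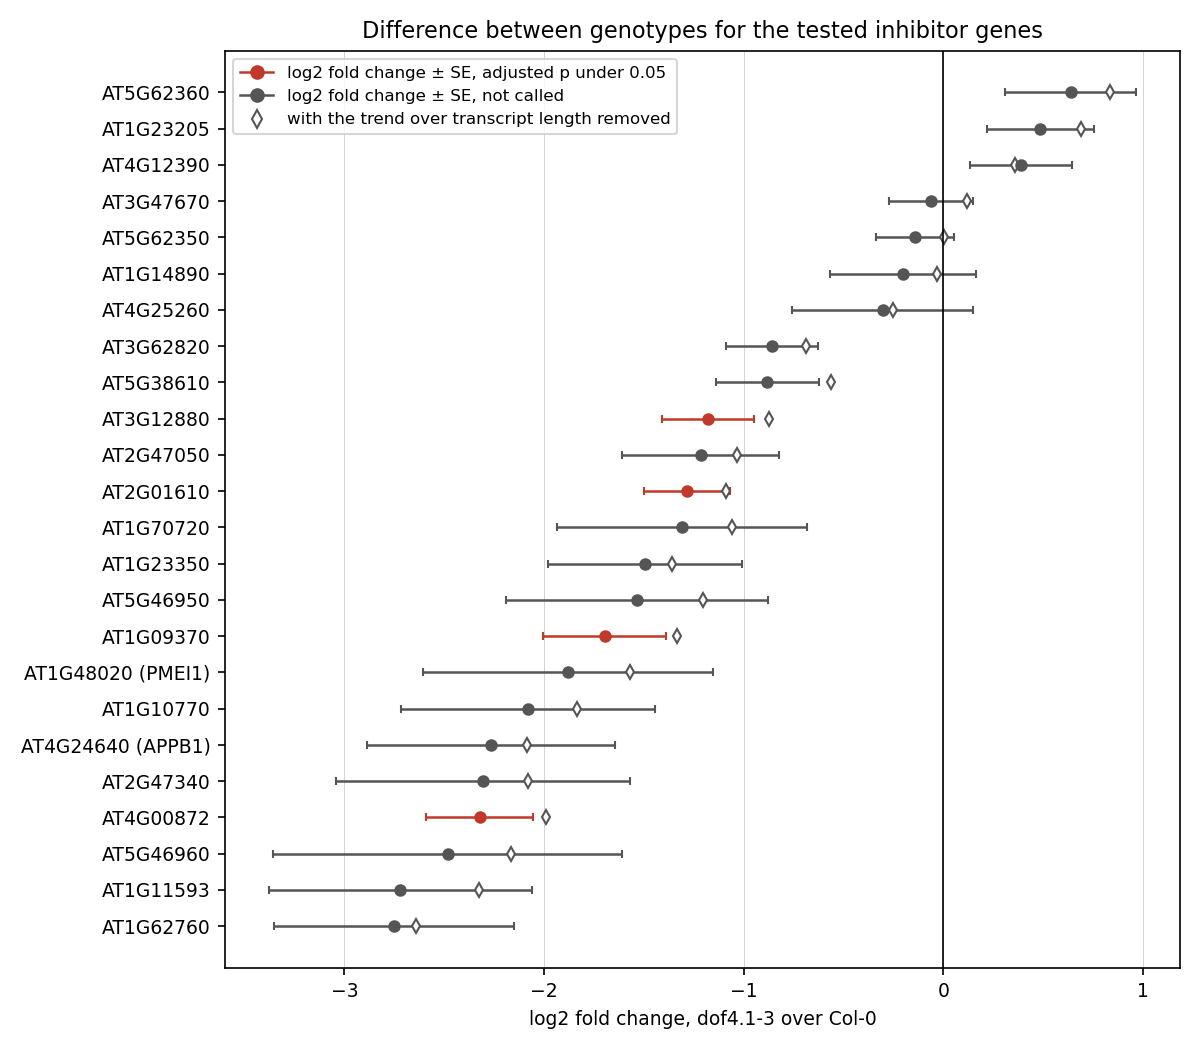
Log2 fold change of dof4.1-3 over Col-0 with its SE for the 24 tested inhibitor genes (filled circles; red, adjusted p under 0.05) and the same with the trend over transcript length removed (open diamonds). The 4 red genes lie between -2.32 and -1.18, and the 3 genes above 0 reach 0.64.

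The fold changes of the broadly expressed inhibitor genes centred near 0. This group holds the 13 genes whose annotation lists at least 13 plant structures and no pollen, a grouping made after the counts were seen, and 10 of them were tested. Their summed level was 221 to 283 CPM in dof4.1-3 and 246 to 337 CPM in Col-0, with overlap. Among the 10, AT2G01610 was called, and the median log2 fold change was -0.17.

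AT1G23205 had 72.7, 101 and 121 CPM in dof4.1-3, against 83.8 and 56.9 CPM in Col-0 (log2 fold change 0.49 ± 0.27 SE, edgeR adjusted p = 0.411). AT5G62350 had 42.6, 45.7 and 38.4 CPM in dof4.1-3, against 52.2 and 41.1 CPM in Col-0 (log2 fold change -0.14 ± 0.20 SE, edgeR adjusted p = 0.753). AT3G47670 had 26.1, 31.6 and 38.4 CPM in dof4.1-3, against 35.3 and 31.7 CPM in Col-0 (log2 fold change -0.06 ± 0.21 SE, edgeR adjusted p = 0.907). The genotypes overlapped in each of these 3 genes.

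AT3G62820 had 32.8, 33.9 and 31.6 CPM in dof4.1-3, against 74.4 and 44.4 CPM in Col-0 (log2 fold change -0.86 ± 0.23 SE, edgeR adjusted p = 0.113). AT5G38610 had 6.15, 6.56 and 8.42 CPM in dof4.1-3, against 15.8 and 10.2 CPM in Col-0 (log2 fold change -0.88 ± 0.26 SE, edgeR adjusted p = 0.136). Neither passed the test, although the libraries of the genotypes did not overlap in either gene. AT1G14890 had 4.47, 8.63 and 12.2 CPM in dof4.1-3, against 10.5 and 8.92 CPM in Col-0, a spread within dof4.1-3 that covered both Col-0 libraries (log2 fold change -0.20 ± 0.37 SE, edgeR adjusted p = 0.821).

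The genes AT5G62360 (PMEI13) and AT4G12390 were above Col-0 in every dof4.1-3 library without passing the test. The log2 fold change was 0.64 ± 0.33 SE for AT5G62360 (edgeR adjusted p = 0.383) and 0.39 ± 0.26 SE for AT4G12390 (edgeR adjusted p = 0.491). AT5G62350 and AT5G62360 stand 2115 bases apart in the same direction, share 59.2% of aligned coding bases and had fold changes of opposite sign, neither of them past the threshold. Exons of AT4G12390, AT5G38610 and AT3G47670 overlap annotated genes on the other strand, and those of AT4G25260 (PMEI7) a gene on the same strand. Since the counting ignored strand, reads from the stretches shared across strands cannot be told apart by gene.

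Inhibitor genes with a pollen annotation were at low levels in both genotypes and varied together between libraries of the same genotype. They are the 8 genes whose annotation names pollen or the male gametophyte, grouped after the counts were seen: AT1G48020 (PMEI1), AT1G10770, AT1G23350, AT1G62760, AT1G70540 (EDA24), AT2G47050, AT2G47340 and AT4G24640 (APPB1). Their summed level was 6.52, 15.0 and 5.87 CPM in dof4.1-3, against 39.7 and 20.1 CPM in Col-0. None of the 7 tested was called by edgeR, all 7 were lower at an unadjusted p under 0.05, where 9.52% of all tested genes were lower and 6.33% higher, and their log2 fold changes ran from -2.75 to -1.22. In 4 of the 7, fewer than 2 dof4.1-3 libraries reached the minimum of the filter.

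APPB1, the most abundant of this group after AT2G47050, had 1.28, 3.20 and 0.519 CPM in dof4.1-3, against 10.7 and 5.34 CPM in Col-0 (log2 fold change -2.27 ± 0.62 SE, edgeR adjusted p = 0.139). PMEI1, an inhibitor of pollen pectin methylesterases in Arabidopsis, had 6, 21 and 4 counts in dof4.1-3, against 48 and 21 counts in Col-0 (log2 fold change -1.88 ± 0.72 SE, edgeR adjusted p = 0.254). Both were chosen for display after their values were seen. In each, replicate 2 stood highest among the dof4.1-3 libraries and replicate 1 above replicate 2 in Col-0, and for PMEI1 dof4.1-3 replicate 2 overlapped the Col-0 range.

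That order of the libraries was shared by most of the group. In the 7 tested genes with a pollen annotation, replicate 2 was the highest dof4.1-3 library in 7, and Col-0 replicate 1 was above Col-0 replicate 2 in 6, by a median of 1.01 on the log2 scale. Among the 10 broadly expressed genes the same counts were 3 and 7, and among the 7 remaining tested genes they were 1 and 5. Over all tested genes replicate 2 was the highest dof4.1-3 library in 36.3% and Col-0 replicate 1 was above Col-0 replicate 2 in 49.3%.

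Marker genes of pollen followed the same order. Of the 6 tested, 5 had dof4.1-3 replicate 2 as the highest dof4.1-3 library and 5 had Col-0 replicate 1 above Col-0 replicate 2. The markers are not all separate from the family. VGD1 and VGDH1 carry the annotated name of the same superfamily and lie near the inhibitor gene AT2G47050 on chromosome 2. AGP6 and AGP11, genes of arabinogalactan proteins, had the same order. The summed level of the 8 pollen markers was 15.0, 28.3 and 10.3 CPM in dof4.1-3, against 56.5 and 32.4 CPM in Col-0. No marker was at 0 in every library, MGH3 had a single count in each of 2 libraries, and ANX1 differed in sign, with 0.99 ± 0.50 SE as its log2 fold change (edgeR adjusted p = 0.37). Their part in the lower levels of the inhibitor genes was not tested.

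**Figure D3:**
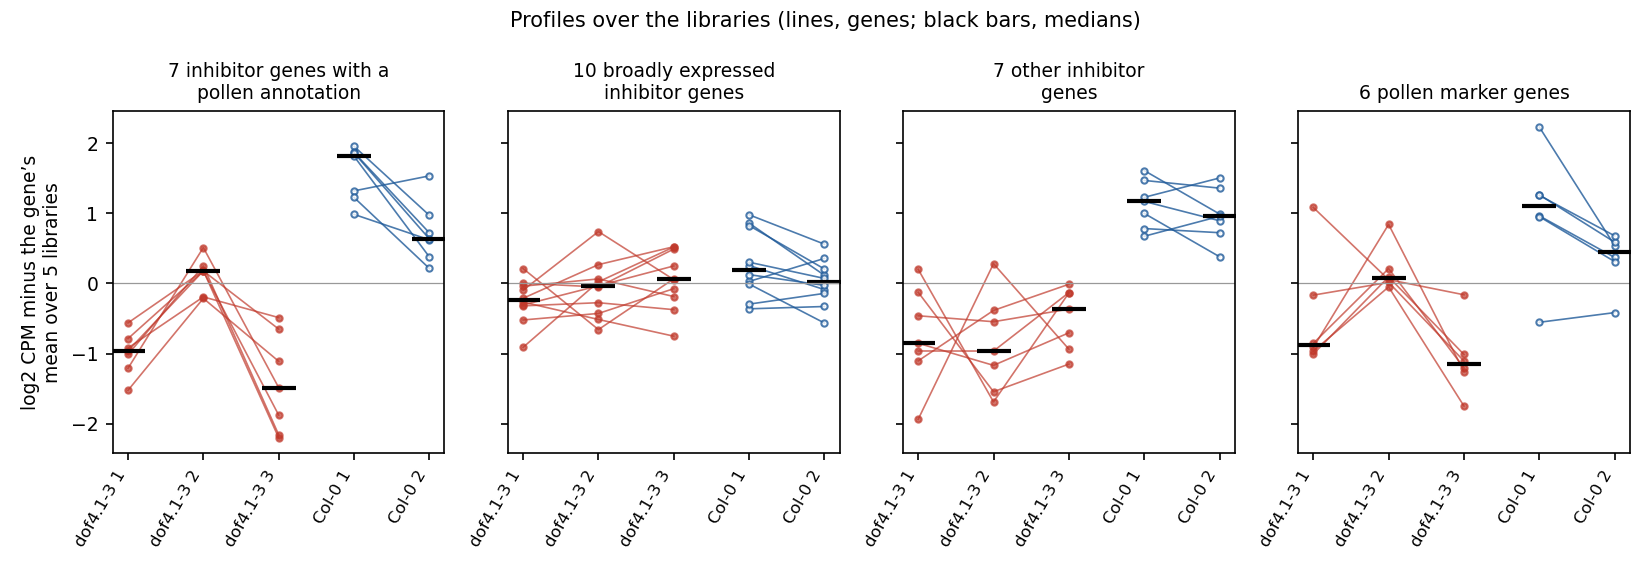
Profiles of 7 inhibitor genes with a pollen annotation, 10 broadly expressed, 7 other inhibitor genes and 6 pollen markers over the libraries (y axis, log2 CPM with a prior count of 2 minus the gene's mean over 5 libraries; red, dof4.1-3; blue, Col-0; lines, genes; black bars, medians). Among the dof4.1-3 libraries the median is highest at replicate 2 in the first and the last panel and at replicate 3 in the other panels.

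After seeing the data, a fit was added that left out the library of each genotype with most pollen marker RNA, dof4.1-3 replicate 2 and Col-0 replicate 1. It set 2 dof4.1-3 libraries against 1 Col-0 library, so that its spread came from dof4.1-3 alone, and pollen markers still summed to 15.0 and 10.3 CPM in the dof4.1-3 libraries kept, against 32.4 CPM in the Col-0 library kept. It called 4 inhibitor genes lower, where 1.79% of all genes tested in it were called lower (346 genes): AT4G00872 (log2 fold change -2.33, adjusted p = 0.000665), AT2G01610 (-1.05, adjusted p = 0.0338), APPB1 (-2.55, adjusted p = 0.0117) and AT1G62760 (-3.57, adjusted p = 0.0345). AT1G09370 (-1.41, adjusted p = 0.0629) and AT3G12880 (-0.79, adjusted p = 0.272) were not called. The fold changes of the 7 genes with a pollen annotation ran from -3.57 to -1.03 in this fit. Without dof4.1-3 replicate 2 alone, 11 inhibitor genes were called lower, 6 of them with a pollen annotation, where 3.78% of all genes tested were called lower (707 genes). Replicate 2 was the highest dof4.1-3 library in all 7 tested genes with a pollen annotation. Leaving it out, alone or with Col-0 replicate 1, could therefore only lower their level in dof4.1-3. For AT1G62760, Col-0 replicate 1 was also the lower Col-0 library (1.30 against 1.52 CPM). These calls, and the fold changes of these genes in the added fit, are no separate support for a difference.

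Of the 18 genes with neither annotation, 7 were tested, and AT4G00872, AT1G09370 and AT3G12880 were the 3 called. The summed level of the 18 was 125 to 143 CPM in dof4.1-3 and 251 to 372 CPM in Col-0, most of it AT3G12880. Among the 15 inhibitor genes below the filter, PMEI2 (AT3G17220), known from pollen like PMEI1, had 3, 1 and 1 counts in dof4.1-3, against 0 and 2 in Col-0. PMEI5 (AT2G31430) had 2, 6 and 1 counts in dof4.1-3, against 8 and 10 in Col-0, and EDA24 had 1, 0 and 0 in dof4.1-3, against 4 and 4 in Col-0. A count of 0 in a library allows up to 3 counts, or 0.137 to 0.185 CPM in these libraries, so a 0 does not show that a gene was absent.

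The largest tandem array of the family, AT5G46940 to AT5G46990 on chromosome 5, was almost silent. AT5G46970, AT5G46980 and AT5G46990 had no count in any library, as had AT1G09360 and AT1G54620 elsewhere, and AT5G46940 (PMEI12) had 2 counts in Col-0 replicate 1 and none in the other libraries. Within the array, the genes still tested are given after their values were seen. AT5G46950 had 2, 4 and 6 counts in dof4.1-3, against 10 and 12 in Col-0. AT5G46960 had 0, 7 and 2 counts in dof4.1-3, against 18 and 14 in Col-0. The coding sequences of these neighbours share 93.5% of aligned bases, and 4.66% of the stretches of 50 bases in AT5G46950 and 4.52% of those in AT5G46960 also occur elsewhere in the genome, where reads could have been lost or split. Both passed the filter through Col-0 alone and neither was called (edgeR adjusted p = 0.294 for AT5G46950 and 0.209 for AT5G46960).

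Among the other genes of the pathway, edgeR called 1 gene, the esterase AT4G03930. Of 41 further genes annotated to the same superfamily without an esterase domain, 12 were tested, none was called in either direction by edgeR, 5 were lower and 0 higher at an unadjusted p under 0.05 (9.52% and 6.33% of all tested genes), and their median log2 fold change was -0.93. Among them PMEI6 (AT2G47670) had 4.15, 5.81 and 11.4 CPM in dof4.1-3, against 24.3 and 17.0 CPM in Col-0 (log2 fold change -1.54 ± 0.39 SE, edgeR adjusted p = 0.106), so that its genotypes did not overlap and it did not pass the edgeR test. The study, which tested with DESeq2 and a minimum fold change, reports a group of PMEI-related genes as downregulated in dof4.1-3. PMEI6 is the member of that group that its text names. Which of the inhibitor genes described here belong to the group was not compared. For the invertase inhibitors, the log2 fold change was -0.89 ± 0.36 SE for C/VIF1 (AT1G47960, edgeR adjusted p = 0.28) and 0.32 ± 0.27 SE for C/VIF2 (AT5G64620, edgeR adjusted p = 0.595).

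On the side of the enzymes, genes were listed by product name and by the pectin methylesterase catalytic domain in the annotation note. A gene with another product name was left out, such as the pollen marker PPME1 (AT1G69940), annotated as pectin lyase-like. Of the 45 genes listed, 28 were tested. Of these 1 was called lower by edgeR and none higher, where 0.963% of all tested genes were called lower and 0.121% higher. The gene, AT4G03930, had 11, 6 and 17 counts in dof4.1-3, against 46 and 68 in Col-0 (log2 fold change -2.42 ± 0.45 SE, edgeR adjusted p = 0.0394). At an unadjusted p under 0.05, 10 of the 28 were lower and 4 higher, where 9.52% of all tested genes were lower and 6.33% higher. The median log2 fold change of the 28 was -0.25. Of 8 invertase genes 7 were tested and none was called by edgeR. At an unadjusted p under 0.05, 1 of the 7 was lower and 0 higher, beside the same shares of all tested genes. The median log2 fold change of the 7 was 0.02.

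Markers of several seed tissues moved with the genotype, and their part in the levels of the inhibitor genes was not tested. Of 14 genes of the seed coat epidermis and its mucilage, 13 were tested, 12 had log2 fold changes below 0, none was called by edgeR and 9 were lower at an unadjusted p under 0.05, where 9.52% of all tested genes were lower. Their summed level was 2720 to 3148 CPM in dof4.1-3 and 4005 to 5027 CPM in Col-0, with MYB5 at 0 in every library. The largest part of it was ARA12 (AT5G67360), at 1551 to 1843 CPM in dof4.1-3 and 2272 to 3033 CPM in Col-0. PMEI6 is 1 of these 14 genes. The 4 endothelium markers summed to 621 to 687 CPM in dof4.1-3 and 1013 to 1117 CPM in Col-0. This sum was carried by TT10, at 545 to 625 CPM in dof4.1-3 and 892 to 988 CPM in Col-0. BAN among the 4 was called lower (log2 fold change -1.85 ± 0.21 SE, edgeR adjusted p = 0.0105). The 7 endosperm markers summed to 53.8 to 95.1 CPM in dof4.1-3 and 140 to 149 CPM in Col-0, a sum carried by ALE1 and RGE1, and of the 5 tested 3 had log2 fold changes below 0 and 2 above. The 5 silique wall markers summed to 28.6 to 32.8 CPM in dof4.1-3 and 53.4 to 61.0 CPM in Col-0, with SHP2 called lower (edgeR adjusted p = 0.0479). The 4 embryo markers went the other way, all with log2 fold changes above 0 (median 1.22), and none was called by edgeR. At an unadjusted p under 0.05, 3 of the 4 were higher, where 6.33% of all tested genes were higher.

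Transcript length moved with the genotype as well, and the inhibitor genes are short. Over all tested genes the median log2 fold change was -0.31 for transcripts of 66 to 901 bases, the shortest 10%, and 0.29 for those of 3150 to 16593 bases, the longest 10%. Of the 24 tested inhibitor genes, 22 lay among the shortest 30%. In the next classes of length the median over all tested genes was -0.20 (901 to 1136 bases) and -0.11 (1137 to 1350 bases). Genes of the whole table within the transcript lengths of the tested inhibitor genes had a median of -0.10, and 117 of these 10119 genes were called lower. That range reaches 1851 bases through AT4G12390, so it also holds genes longer than most inhibitor genes.

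With the trend over length removed from each library, AT4G00872 was the 1 inhibitor gene of 24 called lower (log2 fold change -1.99, edgeR adjusted p = 0.048), where 0.232% of all tested genes were called lower. The log2 fold change was then -1.09 for AT2G01610 (adjusted p = 0.0646), -1.33 for AT1G09370 (adjusted p = 0.102) and -0.87 for AT3G12880 (adjusted p = 0.1). The median of the 17 genes that averaged 1 CPM or more was -0.69 in this fit. DESeq2 was the tool of the authors, who also required a minimum fold change that was not applied here. It called 8 inhibitor genes lower and 0 higher, where 3.29% of all tested genes were called lower. The 8 were the 4 called by edgeR with AT3G62820 (adjusted p = 0.0367), APPB1 (0.00828), AT1G62760 (0.0217) and AT1G10770 (0.0461).

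**Figure D4:**
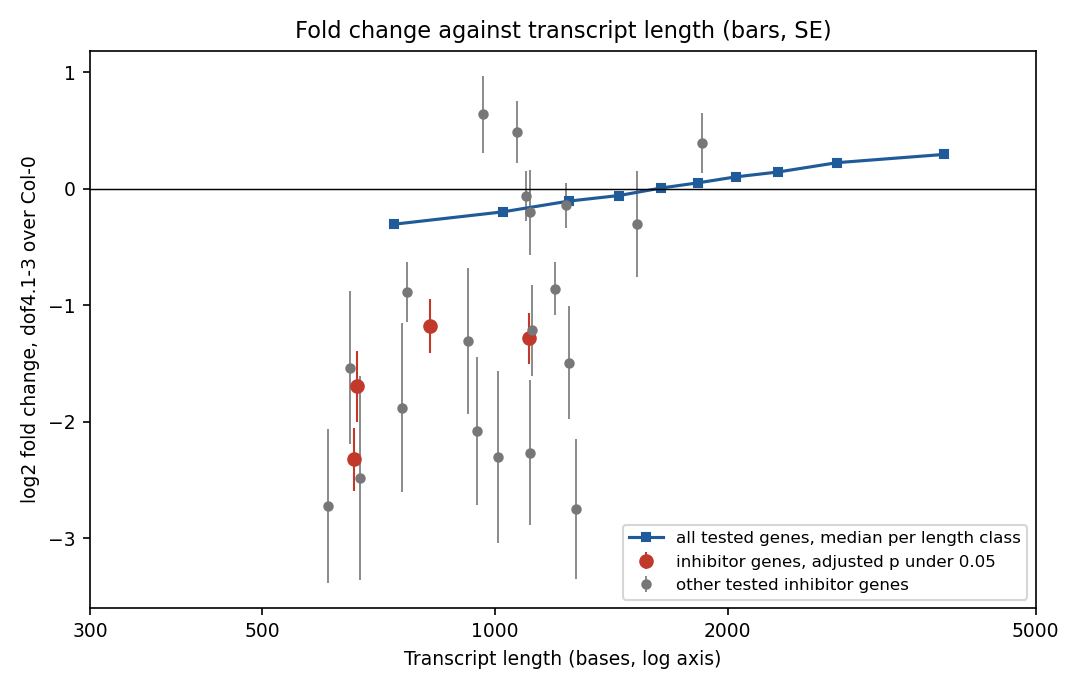
Log2 fold change of dof4.1-3 over Col-0 against transcript length in bases (log axis) for the tested inhibitor genes with their SE (red, adjusted p under 0.05; grey, not called) and the median of all tested genes in each of 10 classes of length of equal size (blue squares, at the median length). The blue line runs from -0.31 to 0.29, and the 4 red genes lie below it.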

How the data were processed

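RNA of developing seeds was sequenced by the authors in 3 dof4.1-3 and 2 Col-0 libraries, grouped by the labels, which write the mutant without its allele number. The authors cleaned the reads (cutadapt, FastQC), aligned them to TAIR10 (HISAT2), counted them per gene regardless of strand (HTSeq) and tested with DESeq2. Tool versions: not given in the sources used here. Raw counts of 37336 genes were deposited, and 0 columns belonged to other samples. Its 5 summary lines and 9 blank lines were left out. Between 0.727% and 1.74% of reads fell outside features, and 3.09% to 3.92% were ambiguous.

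Genes were kept by filterByExpr (about 0.497 CPM in 2 libraries), scaled by TMM (factors 1.09, 0.849 and 0.915 in dof4.1-3, and 0.983 and 1.20 in Col-0) and compared by the quasi-likelihood F test of edgeR with genotype as the only term and Benjamini-Hochberg adjustment over all tested genes (edgeR 4.0.16, limma 3.58.1, DESeq2 1.42.0, R 4.3.3). The SE is the log2 fold change divided by the square root of F. Transcript length was that of the longest annotated transcript of TAIR10.1, which held 37051 of the gene IDs; its nuclear chromosomes are those of TAIR10. The length trend was removed by lowess offsets (span 0.3). Libraries were checked for duplicates and none was found. The scripts were tested on simulated counts. Figures were drawn with matplotlib 3.10.9.

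The members and lists were chosen with earlier results of these data known. Values per library are given for called members, members with an adjusted p under 0.10 and the 10 with the highest mean CPM per kb; others are named where described. The annotation gives one superfamily name to inhibitors and to many esterases, which were separated by the catalytic domain in the annotation notes. Alternatives were DESeq2, limma-voom, RLE factors, scaling without the 50 most abundant genes, no filter, at least 10 counts in every library, the replicate number as a block, the length trend removed, both together, and each library left out. Leaving out dof4.1-3 replicate 2 together with Col-0 replicate 1 was added after seeing the data. Protein sequences were not used here.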

Additional observations from a re-analysis of the deposited data

How the results depend on the processing

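The inhibitor genes called lower numbered 4 in the reported fit, 8 with DESeq2, 7 without the filter on low counts, 2 with the replicate number as a block, 1 with the length trend removed and 0 with the replicate block and the length trend removed together; with 1 library left out they numbered 0 to 11. None was called higher in any fit. Over all tested genes, 183 were lower and 23 higher in the reported fit; the counts were 625 and 258 with DESeq2, 565 and 170 without the filter, 44 and 10 with the length trend removed, 2 and 2 with the replicate block and the length trend removed, 346 and 69 without dof4.1-3 replicate 2 and Col-0 replicate 1, and 0 to 707 and 0 to 181 with 1 library left out. The median log2 fold change over the tested inhibitor genes was -1.30; it was -0.87 over the 15 genes left by at least 10 counts in every library, where fewer genes were tested, -1.07 with the length trend removed, -1.11 with the replicate block and the length trend removed, -1.04 without dof4.1-3 replicate 2 and Col-0 replicate 1, and -1.48 to -1.06 with 1 library left out. Where no construction is named, the cause of these shifts was not tested. limma-voom called 3 inhibitor genes (AT3G12880 at an adjusted p of 0.0543), as did RLE factors (0.0506) and at least 10 counts in every library (0.0503).

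Reversals were limited to genes near 0 that no fit called. AT5G62350 had a log2 fold change of 0.000826 with the length trend removed, 0.063 with the replicate block and the length trend removed, and -0.31 to 0.0428 with 1 library left out. AT3G47670 had 0.12 with the length trend removed, 0.03 without dof4.1-3 replicate 2 and Col-0 replicate 1, and -0.21 to 0.066 with 1 library left out. AT1G14890 had -0.57 to 0.11 with 1 library left out. The replicate numbers are shared by 2 of the 3 dof4.1-3 libraries and both Col-0 libraries. The deviations of same-numbered libraries from their group means correlated at -0.25 and -0.29. The deviations of 2 Col-0 libraries mirror each other, so these values cannot decide whether same-numbered samples shared a batch. Nothing in the labels ties them beyond the number. With the block, AT2G01610 (adjusted p = 0.0811) and AT3G12880 (0.0934) were not called. At this depth a gene with 0 counts in a library may still be present there below 0.137 to 0.185 CPM.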
